A study of Sus scrofa with 28 samples.

Results

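The genes described here are the translation initiation and elongation factors of swine lung, profiled 12 h after the animals inhaled HD (sulfur mustard, an alkylating blister agent) as a vapor. Members were the probe sets to which the array annotation gives exactly 1 symbol starting with EIF or EEF, together with those of PABPC1. They came to 66 probe sets of 43 genes, out of 24123 probe sets and 6765 genes. ETF1, GSPT1, EEF2, EEF2K, EEF1A2, EIF4EBP1, EIF2AK3, EIF2AK4 and EIF5A2 were not analysed here, and neither were 6 probe sets that carry several symbols. One member probe set, for EEF1A1, is an array control and was left out of the tests, so that 65 probe sets of the 43 genes were tested. No filter on low signal was applied, and every member therefore entered every test.

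Initiation factors bring the small ribosomal subunit, the initiator tRNA and the mRNA together. eIF2 delivers the initiator tRNA, and its own activity depends on the exchange factor eIF2B. eIF3 holds the preinitiation complex together, and the cap-binding protein eIF4E, the scaffold eIF4G and the RNA helicase eIF4A load the mRNA. Elongation factors of the EEF1 complex then bring the aminoacyl-tRNAs to the ribosome. Cells commonly limit translation through phosphorylation of eIF2 or through binding proteins that hold eIF4E. These controls act on proteins, whereas the arrays measured mRNA only.

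The animals were 10 female large swine, anesthetized, intubated and kept supine during an exposure of 10 min. In the air group, 3 animals breathed air. In the low-dose group, 3 animals received 60 µg/kg of HD vapor, and in the medium-dose group 4 animals received 100 µg/kg. Arrays of 3 left lung lobes (apical, median, caudal) came to 28, since 1 medium-dose animal had no caudal and another no apical array. Age and breed of the animals are not given, and a single time after exposure limits the model to the early response. Animals are named by their numbers in the labels: 28, 29 and 44 for air, 31, 32 and 33 for the low dose, and 34, 39, 41 and 42 for the medium dose. The lobes of 1 animal are not replicates, so each animal counted once in the exposure comparisons, with its lobes combined.

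The arrays resembled each other closely, with correlations of 0.968 to 0.982 between them and median deposited signals of 55.4 to 64.2. Alveolar markers were bright in every animal, with summed signals of the type 2 list from 6973 to 9007, which fits the labelled tissue, and 6 of 12 striated and heart muscle markers had mean signals under 16. The number of arrays and animals limits the precision of every value below. An RNA index, taken from the 3' over 5' log2 ratios of the actin and GAPDH controls and averaged over both, ranged from 0.616 to 1.35 in 9 animals and stood at 2.17 in medium-dose animal 39. By exact two-sided permutation tests, the index difference was 0.115 for medium minus air (p = 0.886, where 0.0286 is the smallest possible) and 0.474 for medium minus low (p = 0.314, with the same smallest value). For low minus air it was -0.359 (exact p = 0.3, where 0.1 is the smallest possible, so that this comparison could not pass 0.05).

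At the medium dose, the mRNAs of EIF4E, EIF4A1 and EIF2S1 had the largest excess over air at the brightest probe set of each gene, by 1.32-, 1.31- and 1.27-fold, and EIF4B had the largest deficit, to 0.758 of the air level. These folds, like all differences below, are on the scale of log2(signal + 16), which understates the change of dim probe sets. No member probe set passed an adjusted p of 0.05 in limma's moderated test across 23999 probe sets, against 31 of all probe sets, or 0.129%. At an unadjusted p under 0.05 there were 18 of 65 member probe sets, 9 higher and 9 lower, where the share over all probe sets was 16.6% (8.2% higher and 8.37% lower). Counted by gene at the brightest probe set, 11 of 43 genes were at that level, 5 higher and 6 lower. Over all 6765 genes counted in this way, 593 were higher and 710 lower. Unless stated otherwise, shares given below are over all probe sets, dim ones included, also where they stand beside counts of genes. The median difference over the 43 genes was -0.03, beside -0.02 over all genes. Because the samples are pieces of whole lung, fewer cells of a type and less RNA per cell cannot be told apart.

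**Figure D1:**
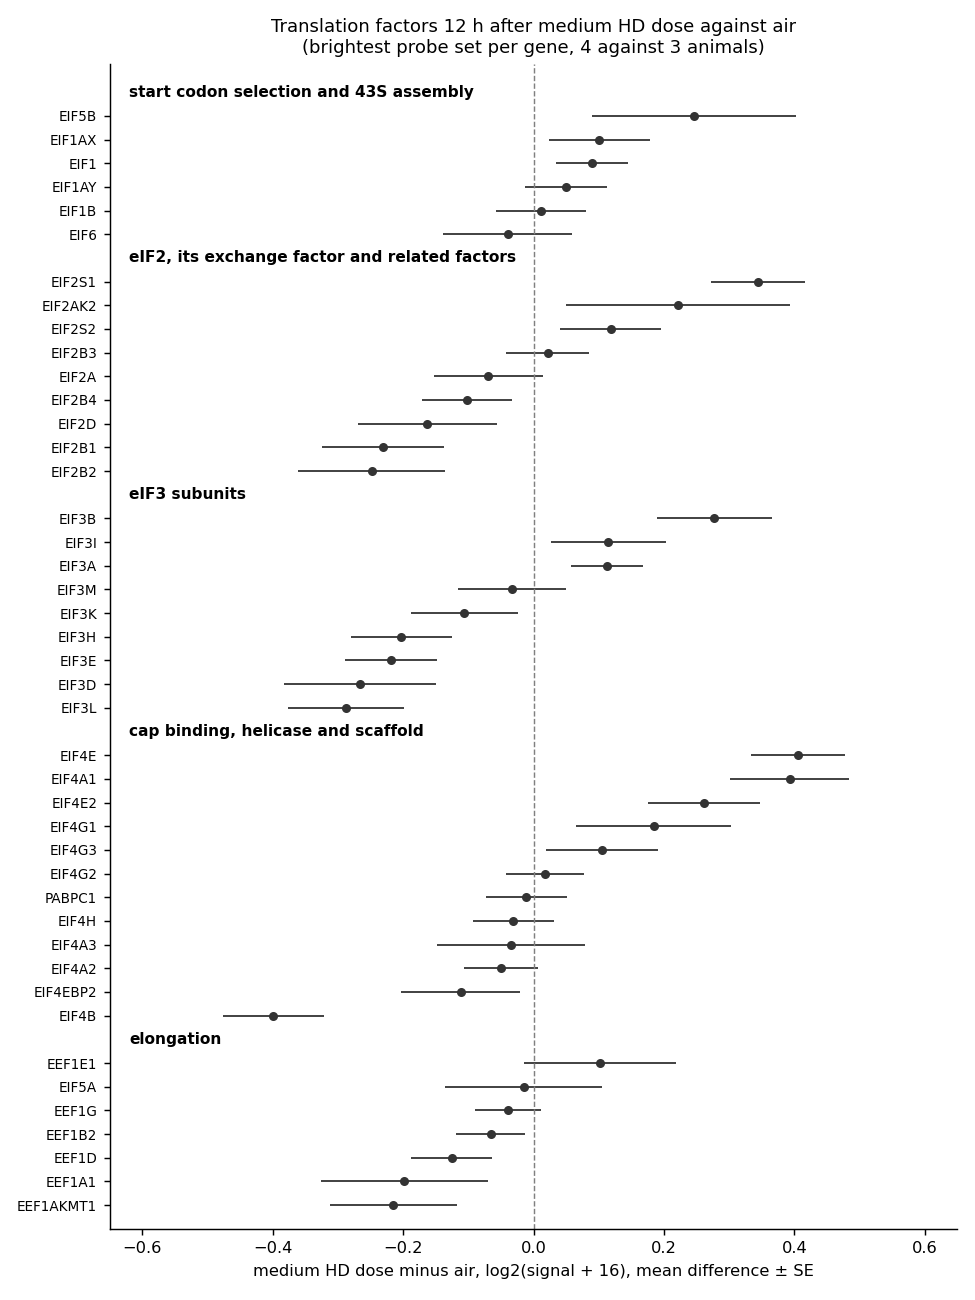
Difference between the medium HD dose (4 animals) and air (3 animals) for the 43 genes at the brightest probe set, on the log2(signal + 16) scale, grouped by role; points are mean differences and bars their standard errors. EIF4E at 0.41 and EIF4B at -0.40 mark the ends of the range, and both lie in the cap-binding group.

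Of the 12 genes for cap binding, the helicase and the scaffold, 6 were above and 6 below air, and this group held both ends of the range. EIF4E, the cap-binding protein, had signals of 69.1, 62.9 and 60.6 in the air animals, 74.3, 67.5 and 72.2 at the low dose, and 94.4, 81.4, 89.6 and 95.7 at the medium dose. All medium-dose animals lay above every other animal, while the low dose overlapped air. The gene has a single tested probe set, and its signals compare with median deposited signals of 55.4 to 64.2 over the arrays. The difference of medium dose and air was 0.41 ± 0.07 (SE; adjusted p = 0.0687, with 0.0274 to 0.284 over 18 alternative settings). EIF4A1, the main helicase of the cap complex, had signals of 862, 782 and 775 in air, 920, 897 and 849 at the low dose, and 1111, 903, 1096 and 1159 at the medium dose. Animal 39 was the lowest of the medium group and still above the air animals, though below low-dose animal 31. The difference was 0.39 ± 0.09 (adjusted p = 0.101, with 0.0311 to 0.35 over the alternatives). EIF4A2, the paralog of EIF4A1, was at -0.05 ± 0.06, and EIF4A3, which belongs to the exon junction complex, at -0.03.

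EIF4B, which stimulates the helicase, had signals of 1341, 1355 and 1203 in air, 1259, 1332 and 1271 at the low dose, and 955, 1047, 889 and 1038 at the medium dose. Every medium-dose animal lay below every other animal. The difference from air was -0.40 ± 0.08 (adjusted p = 0.0773, with 0.0186 to 0.296 over the alternatives), and the second EIF4B probe set gave -0.41 ± 0.12. EIF4H, a related stimulator of the helicase, was at -0.03 at its brighter probe set. Its dimmer probe set had signals of 71.3, 62.6 and 78.7 in air, 56.4, 61.2 and 50.1 at the low dose, and 83.5, 132, 161 and 122 at the medium dose. All medium-dose animals lay above the rest, and the difference from air was 0.67 ± 0.17 (adjusted p = 0.119), the largest excess of any member probe set in this comparison. The scaffold genes had differences of 0.18 ± 0.12 for EIF4G1, 0.02 for EIF4G2 and 0.10 for EIF4G3. EIF4E2, a relative of the cap-binding protein, was at 0.26 ± 0.09 (adjusted p = 0.184), with signals of 217, 185 and 172 in air and 238, 246, 216 and 226 at the medium dose, so that 1 medium-dose animal fell just under air animal 28. Its other probe sets were at -0.04 and -0.05. PABPC1, the poly(A)-binding protein, was level at -0.01 ± 0.06, with 2449 to 2663 in air and 2398 to 2655 at the medium dose.

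EIF4EBP2, a binding protein that holds eIF4E away from the scaffold, was the gene whose 5 probe sets disagreed. The brightest gave -0.11, the next brightest -0.36 ± 0.09 (adjusted p = 0.11) and the dimmest 0.38, while the remaining ones were at -0.08 and 0.03. The probe sets with the lowest and the highest difference were opposed by more than 2 standard errors each, so no single direction is given for the gene. The dimmest one had signals of 12.2 to 21.0 in air, where the offset of 16 weighs heavily. Of the 16 genes with several probe sets, all probe sets had the same sign in 9.

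**Figure D2:**
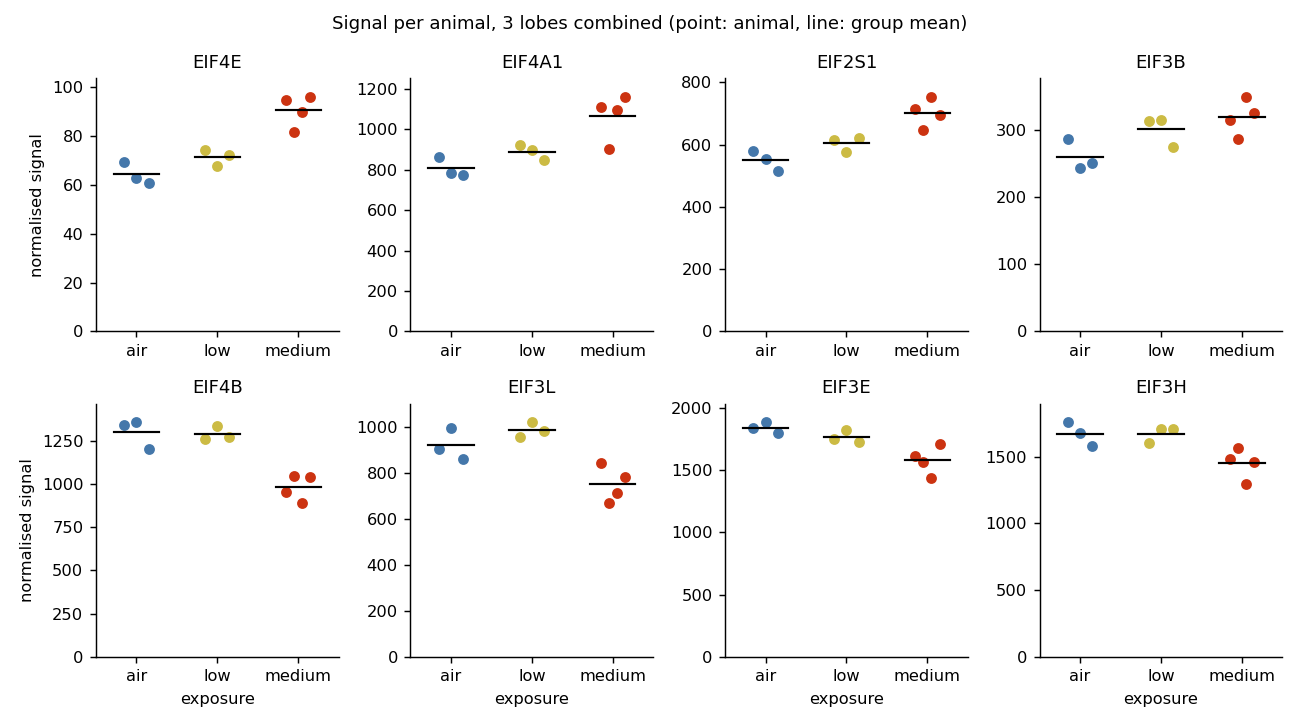
Normalised signal of 8 genes (vertical axis, linear from 0) in each of the 10 animals with the lobes combined, for air, low and medium HD dose; points are animals and lines group means. EIF4E, EIF4A1 and EIF2S1 lie above the air animals in every medium-dose animal, and EIF4B, EIF3L, EIF3E and EIF3H below them.

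In the group of eIF2, its exchange factor and related factors, 4 of 9 genes were above air and 5 below. EIF2S1, the subunit of eIF2 whose phosphorylation controls initiation, had signals of 580, 554 and 514 in air, 613, 578 and 622 at the low dose, and 713, 646, 752 and 695 at the medium dose. The medium-dose animals lay above all others, and the low dose overlapped air by 1 animal. The difference was 0.34 ± 0.07 (adjusted p = 0.0858, with 0.0137 to 0.296 over the alternatives). EIF2S2, the beta subunit, was at 0.12. Of the 4 measured eIF2B subunits, 3 were below air: EIF2B1 at -0.23 ± 0.09, EIF2B2 at -0.25 ± 0.11 and EIF2B4 at -0.10, with EIF2B3 at 0.02. Their adjusted p-values from limma were 0.262 for EIF2B1 and 0.308 for EIF2B2. EIF2AK2, the kinase PKR that is activated by double-stranded RNA, was at 0.22 ± 0.17 (adjusted p = 0.559), and its signals of 203 to 328 in air and 237 to 370 at the medium dose overlapped widely. EIF2A and EIF2D, alternative carriers of the initiator tRNA, were at -0.07 and -0.16.

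The eIF3 complex showed differences of both signs among its 9 measured subunits. EIF3A, EIF3B and EIF3I were above air in the medium-dose group, with a median difference of 0.11, and EIF3D, EIF3E, EIF3H, EIF3K, EIF3L and EIF3M were below, with a median of -0.21. This split was drawn after the values were seen and carries no test. It held under each of the other scalings and without each animal in turn, except that EIF3M stood above air without animal 39. EIF3B, which scaffolds the complex, had signals of 286, 244 and 251 in air, 313, 315 and 275 at the low dose, and 314, 286, 349 and 325 at the medium dose. Its difference was 0.28 ± 0.09 (adjusted p = 0.174), with the lowest medium-dose animal only just above the highest air animal. EIF3A, the largest subunit, was at 0.11 ± 0.06 and EIF3I at 0.11 ± 0.09.

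Among the subunits below air, EIF3L had signals of 901, 994 and 859 in air, 956, 1018 and 983 at the low dose, and 843, 666, 713 and 779 at the medium dose. Its difference was -0.29 ± 0.09 (adjusted p = 0.165), and the animals of the groups did not overlap. EIF3E had signals of 1841, 1883 and 1799 in air, 1754, 1825 and 1723 at the low dose, and 1616, 1567, 1436 and 1713 at the medium dose. All medium-dose animals lay below the air and the low-dose animals, with a difference from air of -0.22 ± 0.07 (adjusted p = 0.176). EIF3H was at -0.20 ± 0.08 (adjusted p = 0.233), EIF3D at -0.27 ± 0.12 (adjusted p = 0.295), EIF3K at -0.11 ± 0.08 and EIF3M at -0.03. A second, dim EIF3D probe set had the opposite sign, at 0.43 ± 0.24 (adjusted p = 0.403), with signals of 15.6 to 22.7 in air and 12.8 to 48.9 at the medium dose.

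**Figure D3:**
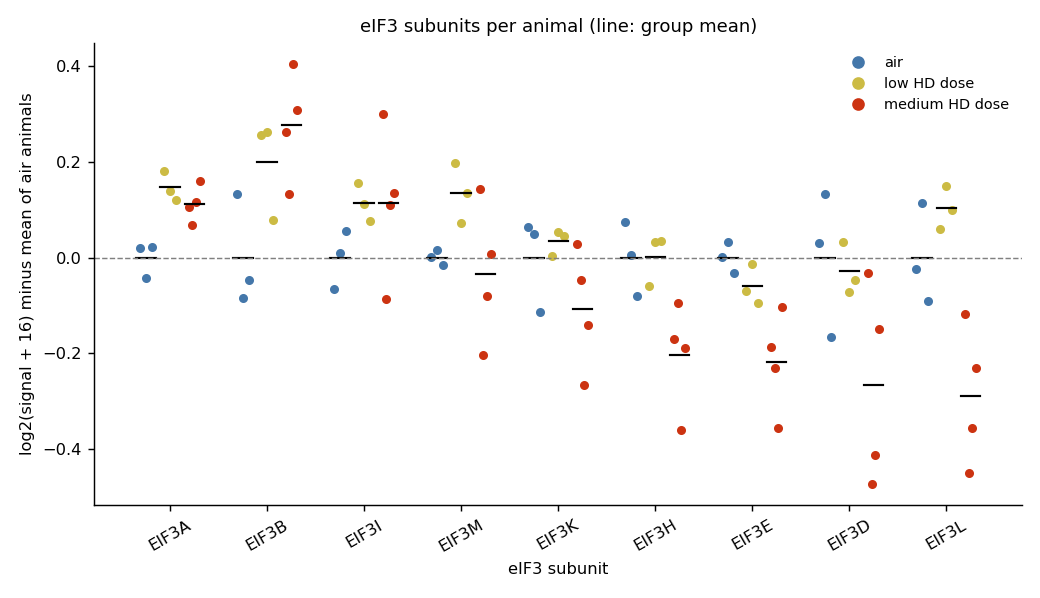
Log2(signal + 16) of the 9 eIF3 subunits in each animal, minus the mean of the air animals, for air, low and medium HD dose; points are animals and lines group means. The medium-dose means of EIF3A, EIF3B and EIF3I lie above 0 and those of the other 6 subunits below 0, down to -0.29 for EIF3L.

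Of the 6 genes for start codon selection and assembly of the preinitiation complex, 5 were above air, with a median difference of 0.07 and none at an unadjusted p under 0.05. EIF1, which guards start codon choice, had signals of 2356 to 2372 in air, 2445 to 2477 at the low dose and 2397 to 2598 at the medium dose. The medium-dose animals did not overlap air, and the difference was 0.09 ± 0.06 (adjusted p = 0.446). EIF1B, its paralog, was at 0.01 and EIF1AX at 0.10. EIF5B, which joins the ribosomal subunits, had signals of 342, 317 and 446 in air, 377, 386 and 380 at the low dose, and 491, 321, 478 and 475 at the medium dose. Animal 39 lay among the air animals and apart from the rest of its group, and the difference was 0.25 ± 0.16. EIF6, which keeps the subunits apart, was at -0.04. EIF1AY, a Y-linked gene, gave signals of only 2.63 to 5.17 in these female animals. It is nevertheless counted among the 5 genes above air and in the median.

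In the elongation group, which includes EEF1E1 and EEF1AKMT1, differences of medium dose and air ran from -0.22 to 0.10 at the brightest probe sets. For EEF1A1, EEF1B2 and EEF1G every medium-dose animal lay below every air animal, where 6.6% of all probe sets did. Of 7 genes, 6 were below air at the medium dose, with a median of -0.07 and none at an unadjusted p under 0.05; with the deposited scaling or median centring, 5 of 7 were below. EEF1A1, which carries the aminoacyl-tRNA, had signals of 404, 350 and 362 in air, 471, 390 and 316 at the low dose, and 346, 348, 283 and 313 at the medium dose. The medium-dose animals lay just below air, and the difference was -0.20 ± 0.13 (adjusted p = 0.471). Its other tested probe sets were at -0.31 and -0.25. The EEF1A1 control probe set, the brightest for that gene, had signals of 3204 to 3843 in air, 2916 to 3442 at the low dose and 3162 to 3737 at the medium dose, all overlapping. The exchange factor subunits EEF1B2, EEF1D and EEF1G were at -0.07 ± 0.05, -0.13 ± 0.06 and -0.04 ± 0.05. EIF5A, which helps ribosomes through difficult stretches, was at -0.02 ± 0.12, and its second probe set at 0.37 ± 0.32. EEF1E1, a part of the multi-synthetase complex, was at 0.10, and EEF1AKMT1, a methyltransferase for EEF1A, at -0.22 ± 0.10.

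The brightest members lay near the top of the array's range. For EEF1B2, PABPC1, EIF1, EEF1G, EIF4A2 and EIF4G2, with mean signals above 2000, the SD between animals within groups was 0.0122 to 0.0548, with a median of 0.0363. The other 59 tested members had a median SD of 0.126, and over all probe sets the medians were 0.0488 above a signal of 2000 and 0.149 below it. Small differences in these 6 genes stand beside that narrow range, and its part in them was not tested.

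By the separation of single animals, 6 genes were higher at the medium dose without overlap with air (EIF4A1, EIF4E, EIF2S1, EIF3A, EIF3B and EIF1) and 7 lower (EIF4B, EIF3E, EIF3H, EIF3L, EEF1A1, EEF1B2 and EEF1G). Over all probe sets the shares without overlap were 6.88% higher and 6.6% lower. Among lists of markers of other cells, those of T and NK, ciliated and erythroid cells had medians away from 0 in the same comparison. They are a selection: other lists, such as those of neutrophils, macrophages and endothelial cells, were measured but are not given for this comparison. T and NK cell markers, 12 measured, had a median of -0.38 with 2 above air, none called by limma and 4 lower at an unadjusted p under 0.05; their summed signal was 2070 to 2164 in air, 1609 to 2342 at the low dose and 1033 to 1891 at the medium dose. Over all probe sets, 8.37% were lower at an unadjusted p under 0.05. The mean signal of 1 of the 12 T and NK cell markers, PRF1, was under 16, and that of CD4 was 21.2. All 5 ciliated cell markers were below air, none at an unadjusted p under 0.05, with a median of -0.34 and sums of 885 to 1199 in air, 1104 to 1401 at the low dose and 914 to 976 at the medium dose. All 4 erythroid markers were above air, none at an unadjusted p under 0.05, with a median of 0.35 and sums of 718 to 1022 in air, 689 to 1146 at the low dose and 905 to 1236 at the medium dose. The part of these cells in the translation factor differences was not tested.

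Whether any member passed the test of the medium dose against air changed with the animals included and with the model. With all animals and the animal as a random effect, 7 member probe sets passed, beside 4.35% of all probe sets. Without animal 39, which had the high RNA index, 4 member probe sets passed at an adjusted p under 0.05 in limma (EIF2S1, EIF4A1, EIF4B and EIF4E) beside 1.63% of all probe sets, and EIF4A1 then stood at 0.47. Without animal 34, the dimmer EIF4H probe set passed at 0.83, beside 1% of all probe sets. With the RNA index as a covariate, EIF4E and the second EIF4B probe set passed, beside 0.363%.

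The low dose differed less from air. No probe set of the array, and so no member, passed an adjusted p of 0.05 in limma (0%), and 7 of 65 member probe sets had an unadjusted p under 0.05 (2 of 43 genes), against 7.41% of all probe sets. Of the 7, 4 were higher and 3 lower, where the shares over all probe sets were 3.54% and 3.87%. Over all 6765 genes at the brightest probe set, 235 were higher and 227 lower at that level. EIF2D had the largest deficit, with signals of 97.1, 75.5 and 75.8 in air and 57.4, 67.5 and 67.4 at the low dose. These did not overlap, and the difference was -0.30 ± 0.11 (adjusted p = 0.661). EIF3A was the other gene at that level, with 1240, 1187 and 1242 in air and 1387, 1349 and 1331 at the low dose, a difference of 0.15 ± 0.06 (adjusted p = 0.666). The largest excess was that of EIF2AK2 at 0.25 ± 0.18, whose groups overlapped. The genes without overlap were EIF4A2, EIF4H, EIF3A, EIF3I, EIF3M and EIF1 higher and EIF2D lower, where the shares of all probe sets were 9.23% and 9.41%. The median over the 43 genes was 0.03, beside 0.00 over all genes, and 26 of 43 were above air. EIF4G1 was at -0.12, EIF2B1 at -0.16, EIF2B3 at -0.09 and EEF1D at -0.06. Second probe sets had the opposite sign for EIF4G1 (0.53 ± 0.18, adjusted p = 0.661), EIF2B1 (0.19 ± 0.32) and EIF5A (0.60 ± 0.34 beside -0.06 at the brighter one). The second EIF5A probe set had 282, 254 and 333 in air and 509, 335 and 509 at the low dose, without overlap (adjusted p = 0.703). EIF4H was at 0.09 at its brighter probe set and at -0.27 at its dimmer one. The dimmer one had 71.3, 62.6 and 78.7 in air and 56.4, 61.2 and 50.1 at the low dose, also without overlap. Of the 16 genes with several probe sets, all probe sets had the same sign in 8.

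Between the doses, medium minus low, 15 of 65 member probe sets (9 of 43 genes) had an unadjusted p under 0.05, against 18.2% of all probe sets (9.76% higher and 8.46% lower, with 8 and 7 among the members), and none passed the adjusted threshold in limma, against 0.00417%. Over all 6765 genes at the brightest probe set, 598 were higher and 703 lower at an unadjusted p under 0.05. This comparison shares its animals with those above. EIF4B was at -0.39 ± 0.08 (adjusted p = 0.0968) and EIF3L at -0.39 ± 0.09 (adjusted p = 0.114), both without overlap of the animals. EIF4E at 0.28 ± 0.07, EIF4E2 at 0.26 ± 0.09 and EIF2S1 at 0.21 ± 0.07 were higher without overlap, with adjusted p-values of 0.131, 0.178 and 0.194. In all, 4 member genes were higher and 8 lower without overlap, where the shares of all probe sets were 7.26% and 6.6%. At the brightest probe sets, EIF4G1 had the largest excess, 0.30 ± 0.12 (adjusted p = 0.234), while its second probe set was at -0.18. Its signals at the brightest were 470, 583 and 452 at the low dose and 544, 670, 687 and 581 at the medium dose, where the groups overlapped. One of the 3 EIF4E2 probe sets was also below 0, at -0.15. Of the 16 genes with several probe sets, all probe sets had the same sign in 8. EIF4A1 was at 0.25, EIF2B2 at -0.24, EIF3D at -0.24 and EEF1A1 at -0.26. At the brightest probe sets, EIF3D, EIF3E, EIF3H, EIF3K, EIF3L and EIF3M were all below the low dose, with a median of -0.19, and in low minus air 4 of these 6 were above 0. The dimmer EIF3D probe set stood at 0.74 ± 0.24 (adjusted p = 0.177), more than 2 standard errors above 0. The brighter one was more than 2 standard errors below 0, so the EIF3D probe sets give no common direction. The dimmer one was called with the animal as a random effect, at 0.74 (adjusted p = 0.0321), beside 5.84% of all probe sets. The dimmer EIF4H probe set was at 0.94 ± 0.17 (adjusted p = 0.0878), with 50.1 to 61.2 at the low dose and 83.5 to 161 at the medium dose. Without animal 34, 5 member probe sets passed the adjusted threshold, beside 5.72% of all probe sets; those of EIF4H and EIF3D were the dimmer ones, at 1.11 and 0.97. Over the 3 groups, the means of 11 genes were ordered upward from air to medium dose and those of 12 downward, where 17.1% and 18% of all probe sets were.

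Exposure differences were also fitted lobe by lobe, with 3 to 4 animals a group. In the median lobe, 97 probe sets passed at the medium dose against air (0.404%), and 1 was a member, the dimmer of the 2 EIF4H probe sets. Its median lobe signals were 63.2, 41 and 56.2 in air, 54.1, 49.4 and 48.9 at the low dose, and 112, 139, 162 and 129 at the medium dose. All medium-dose animals lay well above the others. The difference from air was 1.13 ± 0.14 (adjusted p = 0.0413, with 0.0241 to 0.164 over 14 alternatives), and against the low dose 1.17 ± 0.14 (adjusted p = 0.0426, against 0.0208% of all probe sets). The call was lost with an offset of 1 and without any 1 of the animals except 34, while the difference stayed between 0.99 and 1.34. The brighter EIF4H probe set was at -0.06 in that lobe, so the rise belongs to 1 of the gene's probe sets.

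In the apical lobe the dimmer EIF4H probe set was at 0.33 ± 0.18 (adjusted p = 0.88), with 82.9, 113 and 99.1 at the medium dose against 57.4, 76.0 and 93.4 in air. In the caudal lobe it was at 0.32 ± 0.27 (adjusted p = 0.613), with animal 34 at 62.0 and the others at 167 and 141, against 76.6 to 98.6 in air. The test of whether exposure differences varied between lobes gave an adjusted p of 0.646 for it (limma's moderated F). No probe set of the array passed that test (0%). At an unadjusted p under 0.05 there were 6 of 65 member probe sets, against 7.39% of all, and 4 genes, EIF3H, EIF5B, EIF5A and EIF4B, with adjusted p-values of 0.633 to 0.676.

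**Figure D4:**
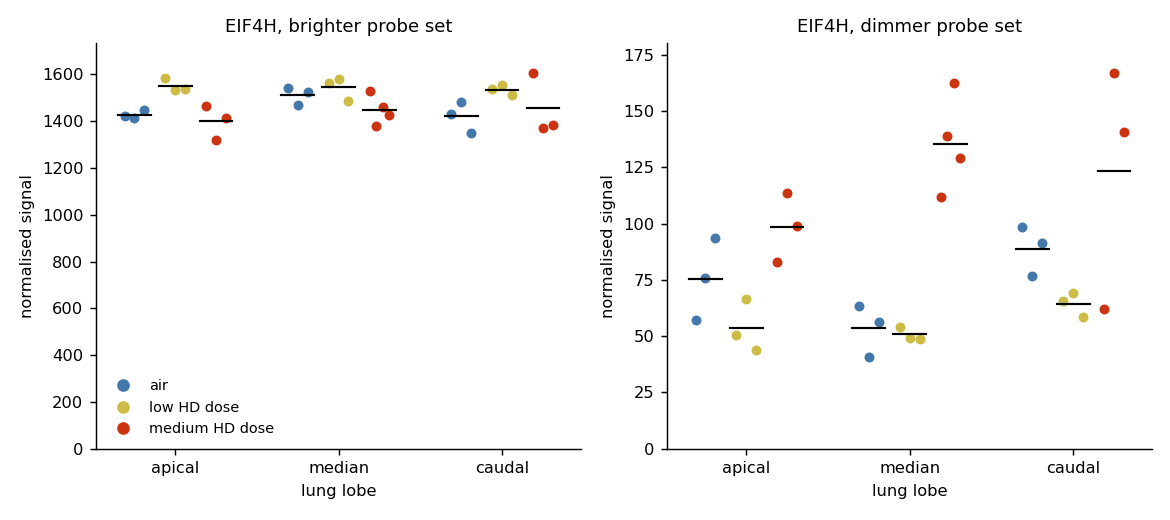
Normalised signal (vertical axis, linear from 0) of the brighter and the dimmer EIF4H probe set on each array, by lobe and by air, low and medium HD dose; points are arrays and lines group means. At the dimmer probe set the medium-dose arrays of the median lobe lie at 112 to 162, above all air and low-dose arrays of that lobe, and at the brighter one the medium-dose and air arrays of that lobe overlap.

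For the other members the medium dose gave 13 of 43 genes at an unadjusted p under 0.05 in the median lobe (8 higher and 5 lower, against 9.14% and 9.47% of all probe sets, 18.6% in all). In the caudal lobe there were 12 genes, 6 higher and 6 lower, against 7.13% and 8.34% (15.5% in all), and 1 probe set of the array, no member, was called (0.00417%). In the apical lobe there were 2 genes, 1 higher and 1 lower, against 2.99% and 2.78% (5.77% in all). The low dose against air gave 3, 2 and 1 of 65 member probe sets at that level in the apical, median and caudal lobes, against 7.12%, 6.93% and 6.09% of all. The medium against the low dose gave 3, 18 and 14, against 11.2%, 22.4% and 9.96%. EIF4B was at -0.12 ± 0.10 in the apical lobe, -0.47 ± 0.10 in the median lobe (adjusted p = 0.07) and -0.57 ± 0.12 in the caudal lobe (adjusted p = 0.125). In the median lobe its signals were 1189, 1445 and 1170 in air and 945, 890, 847 and 945 at the medium dose, and in the caudal lobe 1333, 1279 and 1129 against 769, 824 and 913. The groups were apart in both of these lobes and overlapped in the apical lobe. EIF4A1 was at 0.21, 0.56 ± 0.12 (adjusted p = 0.0708) and 0.43 ± 0.12 in the same order. EIF3B was at -0.02, 0.34 and 0.50, with 232, 238 and 241 in the caudal lobe of the air animals against 366, 316 and 348 at the medium dose. EIF4E was at similar values in each lobe, 0.39, 0.40 and 0.47. Whether the lobes differed was not shown for any of these genes, as the interaction test above passed for none. In the median lobe, T and NK cell markers had a median of -0.52 at the medium dose, and all 5 ciliated markers were below air with a median of -0.48.

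Between lobes, EIF4A1, EIF4G1 and EIF3I were higher in the median than in the apical lobe. These 3 of 65 member probe sets passed an adjusted p of 0.05 in limma with the animal as a block, against 2.38% of all probe sets. EIF4A1 had signals of 584 to 934 with a median of 787 in the apical lobe, 752 to 1437 with a median of 988 in the median lobe, and 766 to 1283 with a median of 935 in the caudal lobe. It was higher in the median lobe in 9 of 9 animals, by 0.36 ± 0.08 (adjusted p = 0.0299, with 0.014 to 0.81 over 17 alternatives). Over all probe sets, 1.37% were higher in every paired animal. EIF4G1 had signals of 439 to 587 with a median of 457 in the apical and 496 to 802 with a median of 594 in the median lobe. It was higher in 8 of 9 animals, by 0.29 ± 0.06 (adjusted p = 0.0277, with 0.0127 to 0.791). EIF3I had signals of 474 to 661 with a median of 559 in the apical and 598 to 785 with a median of 656 in the median lobe, higher in 8 of 9 animals by 0.26 ± 0.06 (adjusted p = 0.0313, with 0.0146 to 0.847).

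These calls changed with the animals included and with the pairing of lobes. All 3 were lost without any 1 of the animals 44, 34, 39 and 42, with adjusted p-values of 0.0654 to 0.113, while the differences stayed at 0.31 to 0.36 for EIF4A1, 0.26 to 0.28 for EIF4G1 and 0.23 to 0.25 for EIF3I. EIF4A1 and EIF3I were also lost without animal 32, and EIF3I without animal 33. In the 3 air animals alone the differences were 0.28 for EIF4A1, 0.20 for EIF4G1 and 0.15 for EIF3I, with adjusted p-values of 0.791 to 0.847. Without the animal as a block the differences were 0.37, 0.31 and 0.25, with adjusted p-values of 0.0676, 0.12 and 0.0931. The median over the 43 genes was 0.04 beside 0.00 over all genes, with 28 above 0, and 9 genes were higher and 4 lower at an unadjusted p under 0.05 (7.47% and 9.16% of all probe sets, 16.6% in all). EIF3B was also higher in the median lobe in 9 of 9 animals, where 1.37% of all probe sets were, by 0.28 ± 0.09 (adjusted p = 0.112). EIF5A was at 0.26 ± 0.08 (adjusted p = 0.0952). EIF4B had the largest deficit at -0.23 ± 0.07 (adjusted p = 0.0659), ahead of EIF2B2 at -0.15, EIF3L at -0.13, EIF3H at -0.12 and EIF4EBP2 at -0.10. The mean RNA index was 0.992, 1.02 and 1.04 in the apical, median and caudal lobes. T and NK cell markers had a median of -0.07 in median minus apical, with 1 of 12 above 0, and all 5 ciliated cell markers were above 0 with a median of 0.17, and the part of either was not tested.

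**Figure D5:**
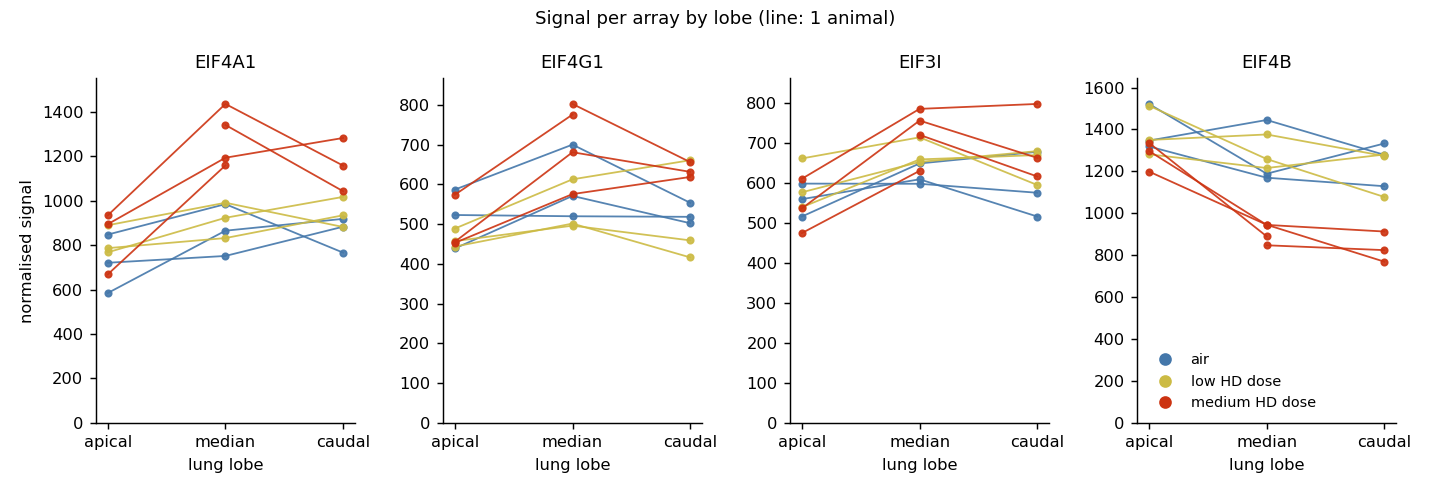
Normalised signal (vertical axis, linear from 0) of EIF4A1, EIF4G1, EIF3I and EIF4B on each array by left lung lobe; each line is 1 animal, coloured by air, low or medium HD dose. EIF4A1 rises from the apical to the median lobe in all 9 animals with both arrays. EIF4B, shown at its brightest probe set, is lower in the caudal than in the apical lobe in all 8 with both.

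Between the caudal and the apical lobe, no member passed in limma, against 0.167% of all probe sets, and 11 genes had an unadjusted p under 0.05, 6 higher and 5 lower, against 13.6% of all probe sets (6.81% and 6.77%). This comparison and the previous one share the apical arrays. EIF3L was at -0.24 ± 0.05 (adjusted p = 0.0599) and EIF4B at -0.29 ± 0.07 (adjusted p = 0.0829). EIF4B signals were 1199 to 1522 in the apical lobe and 769 to 1333 in the caudal lobe. At the brightest probe set, EIF4B, EIF3L, EIF3H and EIF4EBP2 were lower in the caudal lobe in all 8 animals with both arrays. Over all probe sets, 1.5% were. At the second EIF4B probe set, air animals 29 and 44 were higher in the caudal lobe (841 and 832) than in the apical lobe (826 and 777). At the next brightest EIF4EBP2 probe set, air animal 28 and low-dose animal 31 were higher there (830 and 799 against 763 and 632). EIF5B at its brightest probe set was higher in all 8, where 1.35% of all probe sets were, by 0.20 (adjusted p = 0.271). EIF4A1 and EIF4E were both at 0.29, with adjusted p-values of 0.131 and 0.117. EIF4G1 and EIF3I were at 0.16, EIF4EBP2 at -0.21, EIF2B2 at -0.18 and EIF3H at -0.13. Among probe sets in the brighter part of the array, EIF3L and EIF4B passed the adjusted threshold, beside 1.27% of all those probe sets.

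Between the caudal and the median lobe no probe set of the array passed in limma (0%), and 4 genes had an unadjusted p under 0.05, 1 higher and 3 lower, against 11.6% of all probe sets (6.36% and 5.23%). EIF3B was at -0.26 ± 0.09 (adjusted p = 0.301), EEF1E1 at -0.16, EIF4G1 at -0.13, EIF5A at -0.12 and EIF4EBP2 at -0.11. EIF2D was at 0.17 (adjusted p = 0.361), EIF4E at 0.13, EIF2AK2 and EIF4G3 at 0.05 and EIF2A at 0.04. EEF1D was lower in the caudal lobe in 9 of 9 animals, where 0.383% of all probe sets were.

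Other genes of the translation apparatus were read from lists of related genes. Of 17 cytosolic aminoacyl-tRNA synthetases and their cofactors, which charge tRNAs, 13 were above air at the medium dose with a median of 0.21, 8 higher and 1 lower at an unadjusted p under 0.05 and none called by limma. Over all probe sets, 8.2% were higher and 8.37% lower at that level, 16.6% in all. MARS was at 0.39 ± 0.07 (adjusted p = 0.0728) and AIMP2, a scaffold of the synthetase complex, at 0.40 ± 0.10 (adjusted p = 0.109). Of 7 genes that modify EIF5A or EEF2, 6 were above air with a median of 0.21 and 3 at an unadjusted p under 0.05. They included SRM, the spermidine synthase that supplies the hypusine modification, at 0.42 ± 0.10 (adjusted p = 0.106), and DPH5, of diphthamide synthesis, at 0.34. Of 13 genes of the response to eIF2 phosphorylation and its phosphatases, 6 were above air with a median of -0.04. ASNS, the asparagine synthetase that this response induces, was at 0.50 ± 0.13 (adjusted p = 0.129), and IMPACT, an inhibitor of the kinase GCN2, at -0.24.

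The remaining lists lay nearer to 0 in the same comparison. Of 12 genes of mTOR and signalling to translation, 6 were above air with a median of -0.01, among them the kinase RPS6KA1 at -0.28 and the AMPK subunit PRKAA2 at 0.26. Of 10 helpers of initiation, recycling and rescue, 5 were above with a median of 0.05, among them PABPC4, a second cytoplasmic poly(A)-binding protein, at 0.28 and BZW2 at 0.19. Of 8 mitochondrial translation factors, 4 were above with a median of 0.01, among them MTFMT, which formylates the mitochondrial initiator tRNA, at -0.17 and GFM1, a mitochondrial elongation factor, at -0.18. No gene of these 6 lists was called in any of the 3 exposure comparisons.

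In median minus apical lobe, 4 of the 17 synthetase genes were called higher by limma, against 2.38% of all probe sets called in either direction: GARS at 0.28 ± 0.06 (adjusted p = 0.0263), AARS at 0.30 ± 0.07 (adjusted p = 0.0278), FARSA at 0.26 ± 0.06 (adjusted p = 0.0355) and NARS at 0.17 ± 0.04 (adjusted p = 0.0412). In that list 15 were above 0, with a median of 0.19. ASNS, at 0.40 ± 0.08 (adjusted p = 0.0208), and SRM, at 0.52 ± 0.11 (adjusted p = 0.0226), were higher in the median lobe as well. SESN1, a sestrin that restrains mTOR, was lower at -0.31 ± 0.08 (adjusted p = 0.042). All 7 of these calls were lost without any 1 of the animals 34, 39, 42 and 44, in the 8 animals with all lobes and in the air animals alone, and all but that of SRM without the animal as a block. Over 17 alternatives, applied to these genes after their values were seen, the number of settings in which a gene was called ran from 3 for NARS to 11 for SRM, and every difference kept its sign. The helpers of initiation and the mitochondrial factors had no called gene in that comparison, with 4 and 3 genes at an unadjusted p under 0.05, against 16.6% of all probe sets. None of the 6 lists had a called gene between the caudal and apical lobes. At an unadjusted p under 0.05 in limma, 9 of the 17 synthetase genes were higher and 1 lower there, and the other 5 lists had 1 or 2 such genes each. Over all probe sets, 6.81% were higher and 6.77% lower at that level.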

How the data were processed

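Total RNA of 28 lung lobe samples had been hybridised to Affymetrix porcine arrays. The authors deposited 1 linear intensity per probe set and array; the summarization software and its scaling target are not given in the sources used here, and every array has nearly the same trimmed mean. After 124 control probe sets were set aside, log2(intensity + 16) was quantile normalized over 23999 probe sets. Each animal's value, its lobes combined, came from a linear model of animal and lobe, and limma (version 3.58.1, R 4.3.3) compared the 10 animals, with Benjamini-Hochberg adjustment over all probe sets; called means an adjusted p under 0.05. Lobes were compared over 28 arrays with the animal as a block, since lobes of 1 animal share that animal: their deviations from the group means correlated at 0.154 to 0.617, with a median of 0.369, over 26 lobe pairs. The p-values of exposure comparisons measure the spread between animals. The steps were tested on simulated data with added differences larger than those of the members at their brightest probe sets. That test does not show how often differences of the size seen here would be called.

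Gene summaries use the brightest tested probe set. Gene names are those of the array annotation, which can be old; no coordinates or sequences are given. Genes named are members with a called probe set, the 5 highest and 5 lowest differences of each exposure or lobe comparison, members central to each step of translation, paralogs, genes whose probe sets disagree, and of each related list up to 4 called genes or the 2 with the smallest p. The members and lists were chosen with earlier results of these data known. Alternatives covered scaling, offset, dim probe sets, a random animal effect, fewer groups or animals, and an RNA index covariate; they were extended to the called genes of the related lists after seeing the data. Figures were drawn with matplotlib 3.10.9 in Python 3.11.15.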

Additional observations from a re-analysis of the deposited data

Results flagged for a closer look

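In 43 genes, the 4 medium-dose animals were screened for an animal standing apart from the other 3, and chance alone would mark about 1 gene in 20. The screen marked 2 of the 43 genes, which is near that rate. Animal 39 stood apart for EIF2D, with a signal of 85.9 where the others lay at 67.1 to 68.1. Animal 39 also stood apart for EIF5B, with 321 where the others lay at 475 to 491. This animal had the highest RNA index, 2.17, and the part of that in either value was not tested.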

How the results depend on the processing

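Of the comparisons of all members, the counts of called member probe sets stayed at 0 for low minus air, medium minus air in the apical lobe, caudal minus median lobe and the interaction under every alternative run. For medium minus air, 0 calls became 7 with the animal as a random effect (4.35% of all probe sets) and 2 with the RNA covariate (0.363%), and leaving out 1 animal gave 0 to 4. For medium minus low, the random effect gave 4 (5.84% of all probe sets) and leaving out 1 animal 0 to 5 (5.72% in the setting with 5). For medium minus air in the median lobe, 1 call became 0 with an offset of 1 and 3 in the brighter part of the array (1.98%), with 0 to 2 when leaving out 1 animal, and in the caudal lobe that range was 0 to 1. For median minus apical lobe, 3 calls (2.38%) became 1 with an offset of 1 (0.846%), 5 in the brighter part (8.41%), 0 in the 8 animals with all lobes (0.2%) and 0 in the air animals alone (0%), with 0 to 4 when leaving out 1 animal. Caudal minus apical had 2 calls in the brighter part (1.27%). The pairing of lobes within animals mattered for 1 result: with no replicate block for the animal, median minus apical had 0 called member probe sets (0.163% of all).

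The median over members moved from -0.03 to 0.0135 without animal 39 and to 0.0111 with all probe sets averaged for medium minus air (-0.0367 to 0.0135 over the animals left out). It moved to -0.0112 with median centring for low minus air. For medium minus low it moved to 0.00386 with median centring and -0.0163 with the RNA covariate (-0.0599 to -0.0168 over the animals left out), and for median minus apical lobe to -0.0045 in the air animals alone.

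Signs reversed for single genes as follows, and the cause was not tested. Ranges are over the animals left out in turn. In medium minus air, EIF5A turned to 0.00864 (deposited scaling), 0.017 (median centring), 0.0682 (8 animals) and 0.00336 (RNA covariate), with a range of -0.0868 to 0.0781. The ranges were -0.111 to 0.0193 for EIF6 and -0.0382 to 0.0228 for PABPC1. In low minus air, EIF1 turned to -0.0211 (median centring) and EIF6 to 0.049 (RNA covariate), with a range of -0.0763 to 0.0378 for EIF6. The ranges were -0.113 to 0.0238 for EIF5A, -0.0319 to 0.0281 for PABPC1 and -0.0761 to 0.20 for EEF1A1. In medium minus low, PABPC1 turned to 0.00855 (deposited scaling), 0.0421 (median centring) and 0.00903 (RNA covariate), with a range of -0.0303 to 0.0192. EIF2AK2 turned to 0.0225 (median centring), 0.16 (8 animals) and 0.101 (RNA covariate), with a range of -0.118 to 0.0852. EIF3A turned to 0.00386 and EIF6 to 0.0142, both with median centring. The ranges were -0.0939 to 0.0364 for EIF6 and -0.0412 to 0.135 for EIF5A. In the air animals alone, EIF4EBP2 turned to 0.0205 for median minus apical, and EEF1E1 to 0.0552 and EIF4G3 to -0.0254 for caudal minus median.

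With 3 or 4 animals a group, differences of the size seen here passed or missed the threshold by the choice of animals and of model. Probe sets far below a signal of 16 are compressed by the offset, and those above 2000 varied little between animals.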
